A study of Mus musculus with 8 samples.

Results

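Brain and liver were compared in mice that drank lead acetate or distilled water for 3 weeks. The 3 brain arrays, from mice given 0, 100 and 1000 mg/L, were set against 2 liver arrays, from mice given 0 and 1000 mg/L, with dose ignored, which made 5 of the 8 arrays of the series. The other 3 arrays hold kidney RNA and enter only as another tissue beside the results. The labels give male mice, total RNA from small pieces of each organ, and 1 sample for each organ and dose. They give no strain, age or brain region, and nothing says whether a sample was 1 animal or a pool, so the p-values below measure the spread between these samples, in which any effect of dose is included.

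Each array was hybridised with a single labelled sample and carries 56605 different probes other than controls. A level is log2 of the processed signal, averaged over the spots of a probe, minus the 75th percentile of that array, so that a level of 0 is the 75th percentile. A probe was tested where the scanner marked it well above background on all 3 brain arrays or on both liver arrays, which left 36509 probes of 23886 genes. Where a gene has several probes, the brightest one on average over the 5 arrays stands for it. It was called higher or lower in brain where limma's adjusted p, Benjamini-Hochberg over all tested probes, was under 0.05 and the log2 difference was at least 1 in size, a 2-fold change. Values per array are given in the order control, low dose and high dose for brain, and control and high dose for liver, and each difference is brain minus liver with its standard error.

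Neurons signal through vesicle release, ion channels and receptors, while astrocytes, oligodendrocytes and microglia supply, insulate and survey them. Hepatocytes secrete most plasma proteins, make urea, glucose and bile acids, and carry the enzymes that oxidise and conjugate foreign compounds. Lead enters cells in place of calcium, zinc and iron, inhibits the heme enzyme aminolevulinate dehydratase, and acts on the nervous system, so the genes that handle these metals are given in detail below.

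Of the 23886 genes, 6467 (27.1%) were higher in brain and 7291 (30.5%) were lower, so 57.6% passed the rule in 1 direction or the other. At any size, 86.0% passed the adjusted p of 0.05, and in 90.6% the brain arrays did not overlap the liver arrays. The SD of the log2 difference over all tested genes was 3.02, and the median standard error was 0.113. Arrays of the same tissue correlated over the tested probes at r = 0.992 to 0.995, and brain with liver arrays at 0.548 to 0.554, as a description across probes that share their arrays. Differences of at least 8 on the log2 scale were found for 348 genes higher and 395 genes lower in brain. Of 4727 called genes with other tested probes, 4062 had the same sign on all of them. The median difference over all tested genes was -0.28, and it depended on the scaling: brain arrays had a 75th-percentile signal of 919 to 954 and liver arrays one of 427 to 435, and without scaling between arrays every difference was 1.12 higher. Small differences are therefore to be read against that shift. Spots well above background made 64.0 to 67.1% of each brain array and 53.4 to 54.0% of each liver array. The 3 brain arrays lay in one row of the slide and the 2 liver arrays in the other, so that tissue and row cannot be told apart.

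**Figure D1:**
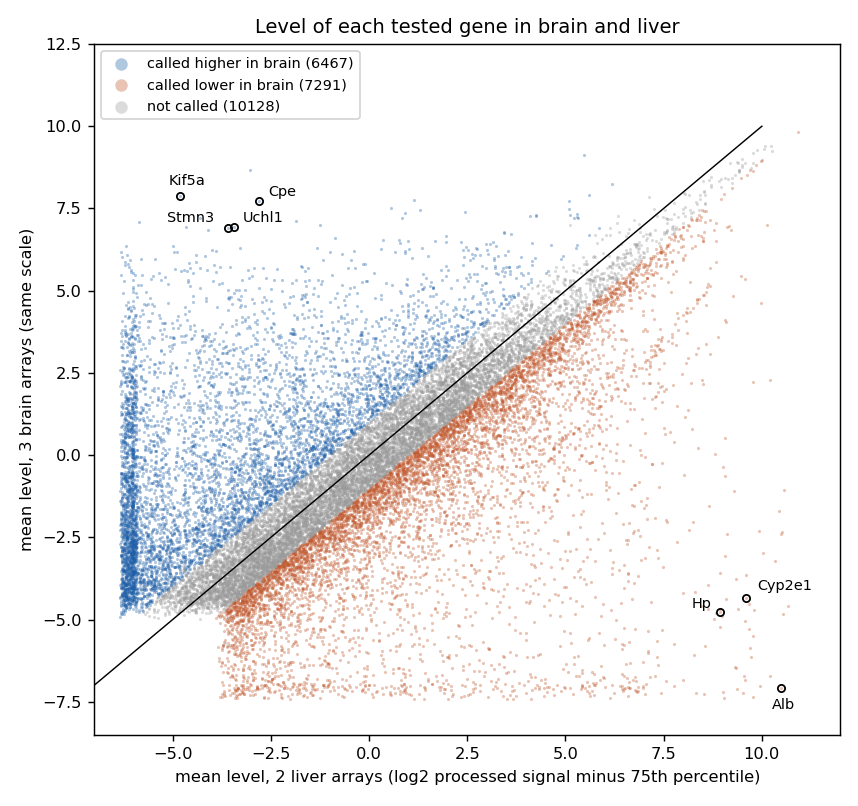
Mean level of each of the 23886 tested genes on the 2 liver arrays (x axis) and the 3 brain arrays (y axis), both as log2 processed signal minus the array's 75th percentile; colours give genes called higher in brain, called lower in brain and not called, and the line marks equal levels. Genes at the left and lower edges, such as Kif5a and Alb, were not well above background in the dimmer tissue.

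The direction was the same in unexposed mice. Every one of the 6467 higher and 7291 lower genes had the same sign in control brain against control liver, and also in high-dose brain against high-dose liver. The difference was at least 1 in size in the controls alone for 6235 of the higher and 7013 of the lower genes. In these single-array comparisons there is no test, and since the same arrays are part of the fit and nearly all called genes have no overlap between the tissues, the call itself largely fixes that sign. A difference of at least 1 was found for 27.2% of all tested genes upward and 31.0% downward between the control arrays.

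Among genes measured on all 5 arrays, the largest excesses in brain were those of Cpe, Stmn3 and Uchl1. Cpe, the carboxypeptidase that trims neuropeptide precursors, had levels of 7.71, 7.73 and 7.70 in brain against -2.71 and -2.90 in liver, a difference of 10.52 ± 0.064, or 1464-fold (adjusted p = 1.88e-09). Stmn3, a regulator of microtubules, stood at 6.85, 6.93 and 6.98 in brain and -3.60 and -3.58 in liver, 1456-fold apart. For Uchl1, a ubiquitin hydrolase abundant in neurons, brain read 6.91, 6.91 and 6.94 and liver -3.48 and -3.39. These genes separate the tissues by more than 1000-fold on their brightest probes, with a spread among brain arrays below 0.1. The other tested Uchl1 probe differed by only 1.75. Gpm6b, Rtn1, Adgrb2, Scg5, Sult4a1, Cracdl, Fam131a and Dlgap3 were also among the 12 largest, with differences of 9.27 for Gpm6b down to 8.43 for Dlgap3. Gpm6b is a membrane protein and Scg5 a chaperone of prohormone convertase.

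For genes that were not well above background on either liver array, only a lower bound of the ratio can be given. It sets the mean of the bright tissue against, on each dim array, the lowest signal that was well above background or the probe's own, whichever was higher. Each bound here and below is that of the brightest probe, and other tested probes of the gene can differ by less. Kif5a, a neuronal kinesin motor, was at least 3720.2-fold higher in brain, with measured means of 7.87 in brain and -4.81 in liver. Hpca, the calcium sensor hippocalcin, was at least 2339-fold higher and Ndrg4 at least 2183-fold, on their brightest probes. The 2 other tested probes of Hpca differed by 0.40 and 9.19, and those of Ndrg4 by 1.61 and 6.44. The bounds of Rab6b and Hpcal4 were 1317 and 1317-fold. Genes dim on every liver array were tested through brain alone: of 3907, 3304 were higher and none lower. Of genes dim on every brain array, 829 were tested through liver alone, and all were lower. The filter thus largely set the direction of both kinds.

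The largest deficits in brain were those of secreted and drug-metabolising liver proteins. Mup18, a major urinary protein made by the liver of male mice, had levels of -4.37, -4.88 and -4.34 in brain against 9.67 and 9.65 in liver, a difference of -14.19 ± 0.17 (adjusted p = 6.16e-09). Cyp2e1, the cytochrome that oxidises ethanol, stood at -4.50, -4.26 and -4.23 in brain and 9.53 and 9.68 in liver. Haptoglobin (Hp), which binds free hemoglobin, had -4.72, -4.70 and -4.84 in brain and 9.01 and 8.87 in liver. No brain array came within 12 log2 units of a liver array for any of these 3 genes. The other 9 of the 12 largest were Akr1c6, Mup19, Serpina3m, Apoc3, Mup2, Serpina1a, Serpina1c, Fbp1 and the pseudogene Mup-ps16. Genes of the Mup and Serpina1 families are near-identical copies, so their probes may share signal and their values are uncertain one by one. Albumin (Alb), the main plasma protein, was at least 48842-fold lower in brain, with measured means of -7.07 in brain and 10.49 in liver. Ahsg, Fabp1, Ambp, Mup20 and Fgg had bounds of 40046, 33988, 29693, 28584 and 25658-fold lower.

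At the other end stood genes with like levels. Of genes that were not called and differed by under 0.1, those with the highest levels were Ubb, Smg5, Samd11, Mettl7a2 and Gnas. Ubb, a polyubiquitin gene, read 7.93, 7.94 and 7.92 in brain and 8.04 and 8.02 in liver. The brightest Gnas probe, of a gene for a G protein subunit with many transcripts, read 6.44, 6.34 and 6.50 in brain and 6.45 and 6.36 in liver, while its 6 other probes ranged from -1.75 to 7.64. These levels are scaled, and without scaling brain would stand 1.12 higher for each.

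All 20 genes of synaptic vesicles and transmitter release were higher in brain, where 27.1% of tested genes were. Their median difference was 5.52, against -0.28 over all tested genes, and was the same with the 7 genes dim in liver put at their bounds. Fewer cells of a type and less RNA per cell cannot be told apart in bulk tissue of this kind. Cplx1, a complexin that clamps release, had levels of 5.04, 5.09 and 5.05 in brain and -5.97 and -6.03 in liver, and was at least 531-fold higher in brain. Synapsin 1 (Syn1) was at least 772-fold higher. Bsn and Pclo, the large scaffold proteins of the active zone, were at least 172 and 171-fold higher on their brightest probes. The 2 other tested Pclo probes differed by -0.02 and 6.57, and the other tested Bsn probe by 4.34. Synaptophysin (Syp) and Snap25, markers of neurons, also read well above background in liver: Syp had 5.51, 5.32 and 5.54 in brain and 1.96 and 1.96 in liver, and Snap25 had 6.33, 6.33 and 6.28 in brain and 2.42 and 2.51 in liver. The other 2 Snap25 probes differed more, by 7.14 and 8.71. The neuron markers Syp, Snap25, Syt1, Stmn2 and Nefl were all called higher in brain.

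Ionotropic and metabotropic receptors showed the same pattern. Of 20 glutamate receptor and scaffold genes, 19 were higher in brain and 1 was lower. Their median difference was 6.49, or 5.52 with the 12 genes dim on both liver arrays at their bounds. The filter largely set the direction of those 12, and 6 of the 20 were well above background on all 5 arrays. Gria2, the AMPA receptor subunit that sets calcium permeability, had 4.11, 4.001 and 4.13 in brain and -5.94 and -6.02 in liver, at least 269-fold higher in brain (adjusted p = 2.17e-09). Its 2 other tested probes differed by 5.05 and 5.95. The exception was Grik1, a kainate receptor subunit, at 3.20, 3.18 and 3.27 in brain and 4.89 and 4.73 in liver for its brightest probe. Its 4 other tested probes went the other way, with differences of 2.58 to 5.38. Of 17 GABA and glycine receptor genes, 16 were higher and none lower, with a median of 6.83, or 5.19 with 10 dim genes at their bounds. The direction of those 10 was likewise largely set by the filter, and 6 of the 17 were well above background on all 5 arrays. Gabra4 was at least 638-fold and Glrb at least 187-fold higher on their brightest probes. Their other tested probes differed by 9.18 and 3.41. Glra1, the glycine receptor subunit of brainstem and spinal cord, was not called, at -1.96, -1.73 and -2.002 in brain and -1.48 and -1.66 in liver.

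Sodium, calcium and potassium channel genes, most of them voltage-gated, were higher in brain for 23 of 26, with a median of 6.54, or 5.11 at the bounds. Of the 26, 19 were dim on both liver arrays, so the filter largely set their direction, and 7 were well above background on all 5 arrays. Bounds for Scn2b, Kcna1 and Scn1a were 308, 195 and 142-fold. Hcn2 and Scn8a were lower and Cacna1b was not called on the brightest probe. Scn8a, a sodium channel of axons, had 0.71, 0.72 and 0.71 in brain and 4.88 and 4.78 in liver on that probe, while its 3 other probes were higher in brain by 4.55 to 8.72. For Cacna1b the 3 other probes were higher by 2.38 to 6.69. Hcn2 has a single tested probe and was not called without scaling between arrays, at 5.11, 5.02 and 5.09 in brain and 6.14 and 6.45 in liver.

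All 19 genes of the neuronal cytoskeleton and of axon growth were higher in brain, with a median difference of 7.64, or 7.37 at the bounds. Stmn2 and Nefm, a growth-cone protein and a neurofilament subunit, were at least 549.9-fold and 406-fold higher on their brightest probes. Their other tested probes differed by 3.96 and 8.41. Map1b, Nefl and Gap43 had bounds of 826, 313 and 245-fold. Of 17 tested neuropeptide genes, 15 were higher and none lower, with a median of 5.15, or 3.50 at the bounds. Among all tested genes 27.1% were higher. Of the 17, 12 were dim on both liver arrays, so the filter largely set their direction. Only 2 of these 17 were well above background on all 5 arrays. Somatostatin (Sst) stood at 5.86, 5.83 and 5.80 in brain and -4.73 and -4.42 in liver. Enkephalin (Penk) and Tac1 varied more among the brain arrays than Sst did: Penk read 4.42, 5.95 and 3.60 and Tac1 1.96, 3.44 and 1.46, both highest at the low dose, against -6.10 and -6.15 for Penk and -6.03 and -6.07 for Tac1 in liver. Both genes were far above liver on every brain array.

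Genes for making and loading transmitters were split. Of 15 tested, 7 were higher, 3 lower and 5 not called. The vesicular GABA carrier Slc32a1 was at least 439-fold higher. On their brightest probes the GABA-making enzymes Gad1 and Gad2 were at least 99.2-fold and 80.6-fold higher. The 2 other tested probes of Gad1 differed by -0.13 and 3.36, and those of Gad2 by 0.35 and 3.96. Ddc, the decarboxylase that makes dopamine and serotonin, was lower in brain, at -0.23, -0.16 and -0.30 against 5.85 and 5.36 in liver. Abat, which degrades GABA, was lower too, at 4.06, 4.33 and 3.99 in brain and 5.80 and 5.73 in liver. Glutamine synthetase (Glul) was not called, at 5.24, 5.36 and 5.37 in brain and 4.91 and 5.05 in liver.

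Transcription factors and RNA-binding proteins of neurons were also higher. Of 20 brain transcription factors, 19 were called higher and 1 not called, with a median of 6.70, or 4.62 at the bounds. Over all tested genes 27.1% were higher. Of the 20, 14 were dim on both liver arrays, so the filter largely set their direction, and 5 were well above background on all 5 arrays. Tbr1, a factor of the cortex, was at least 197-fold higher on its brightest probe, while its other tested probe differed by 2.73. Of 15 neuronal splicing regulators, 13 were higher. Rbfox1 read 5.70, 5.90 and 5.73 in brain and -6.17 and -6.23 in liver and was at least 872-fold higher. Elavl4 and Celf3 were not called on the brightest probe, while their other probes were higher by 5.21 to 6.32 for Elavl4 and by 6.48 for Celf3. The polypyrimidine tract binding proteins went opposite ways: Ptbp2, the neuronal form, was higher by 1.07 ± 0.11, and Ptbp1, which neurons switch off, was lower (difference of -2.82).

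Promoters of the called genes were searched for short letter patterns on both strands, over 250 bases before to 50 after the RefSeq start of 27025 genes on GRCm38.p6, which include 12646 of the 15833 tested protein-coding genes. Where a gene has several starts, the one first by position was taken. The 16 patterns, with N for any base, were of HNF1 type (GTTAAT, then N and ATT, alone or followed by AAC), CEBP type (TTGCGCAA and TTGCNNAA), HNF4 type (AGGTCA repeated with an A between, and CAAAGTCCA), FOXA type (TGTTTGC), CRE type (TGACGTCA and TGACG), RE1 type (AGCACC, NN, GGACAG), E-box type (CAGATG), MEF2 type (CTATT followed by TATAG), NRF1 type (GCGCA followed by TGCGC), ETS type (CCGGAAG), SP1 type (GGGGCGGGG) and EGR type (GCGGGGGCG). The shorter of each pair of HNF1, CEBP and CRE patterns also counts the longer one, and the SP1 and EGR patterns can overlap. A match is a run of letters, not a site of binding.

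The RE1-type letters, part of the element bound by the repressor REST, were found in 9 of the 12646 promoters of tested protein-coding genes. All 9 genes were higher in brain, as were 3507 of the 12646. The letters stand in 12 of all 27025 promoters, or 0.0444%, and in none of the 4012 genes lower in brain. The 9 sites are shown because every one belongs to a gene on the brain side, each as 30 bases, 5′ to 3′, on the strand that reads the pattern as spelled, with the pattern in capitals.
Gria2 (chr3:80802984-80803013, plus strand): tcgattttAGCACCGCGGACAGcgctttgg
Ttc9b (chr7:27653934-27653963, minus strand): tgagcatcAGCACCGGGGACAGcgcgccgc
Gad2 (chr2:22622156-22622185, plus strand): gctgtggtAGCACCCTGGACAGcgcgttcc
Fam163b (chr2:27142557-27142586, minus strand): ccagcgtcAGCACCAGGGACAGttcctcgc
Fbll1 (chr11:35799051-35799080, plus strand): gtccagtcAGCACCAGGGACAGctacctca
Hrh3 (chr2:180104569-180104598, plus strand): gcgcgggcAGCACCACGGACAGcgccgcgt
Ogdhl (chr14:32321909-32321938, plus strand): gggaggtcAGCACCTCGGACAGcgagggcc
Scamp5 (chr9:57468190-57468219, minus strand): gaatatttAGCACCACGGACAGctcctgca
Lca5 (chr9:83441283-83441312, plus strand): cggagcccAGCACCCAGGACAGaccgaaag
Gad2 and Gria2, described above, carry it 163 and 170 bases before the start. Hrh3 encodes the histamine H3 receptor and Scamp5 a synaptic vesicle protein. Gria2, Ttc9b, Gad2, Fbll1, Hrh3, Ogdhl and Lca5 were not well above background on either liver array. Their bounds ran from 2.13-fold higher in brain for Lca5, a gene of the photoreceptor cilium, to 269-fold for Gria2. They passed the background filter through brain alone, so their direction was largely set by it. Fam163b was well above background on only part of the liver arrays, and Scamp5 on all 5 arrays. All 9 genes are named for their letters and were chosen after their values were seen. The gene Rest itself was lower in brain, at -1.99, -2.14 and -2.19 against 0.85 and 0.82 in liver. The 250 bases before the start of Gria2, on the minus strand at chr3:80802836-80803085, place the pattern, here read from the other strand, in its promoter.
Gria2: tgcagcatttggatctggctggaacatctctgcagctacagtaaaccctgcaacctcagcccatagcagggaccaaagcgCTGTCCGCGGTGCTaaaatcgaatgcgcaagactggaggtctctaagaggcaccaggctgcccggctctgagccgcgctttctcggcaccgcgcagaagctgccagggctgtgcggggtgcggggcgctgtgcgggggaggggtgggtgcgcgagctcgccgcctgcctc

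Astrocyte markers were less uniform than neuronal genes. Of 12, 8 were higher, 3 lower and 1 not called. S100b and Slc1a3 were at least 301 and 178-fold higher in brain. The other tested Slc1a3 probe differed by 4.83. Gfap, the astrocyte filament protein, had 1.21, 0.52 and 1.06 in brain and -6.03 and -6.08 in liver. Aldh1l1, a folate enzyme used as an astrocyte marker, was lower in brain at 3.24, 3.27 and 3.30 against 8.38 and 8.35 in liver. Clu and Ndrg2 were lower too, with differences of -1.78 and -1.42, and were no longer called without scaling. The glutamate carrier Slc1a2 and the water channel Aqp4 were higher by only 1.63 ± 0.11 and 1.47 ± 0.11, and the 2 other Aqp4 probes had differences of -0.64 and 1.76.

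Of 14 oligodendrocyte and myelin genes, 12 were higher, with a median of 5.04, or 4.05 at the bounds. Myelin basic protein (Mbp) read 2.67, 2.78 and 2.97 in brain and -2.86 and -2.92 in liver, and Cldn11, the tight junction protein of myelin, was at least 144-fold higher. Ermn, a cytoskeletal protein of oligodendrocytes, was lower, at 5.37, 5.30 and 5.40 in brain and 6.52 and 6.55 in liver, and without scaling the log2 difference of Ermn was -0.049 and it was not called. Mog was not called on its brightest probe, with a difference of 0.94 ± 0.12, and its 2 other probes were higher by 2.05 and 2.81. Without the high-dose brain array or the control liver array the log2 difference of Mog was 1.002 or 1.064, and it was called. Of 8 microglial genes, 6 were higher. Tmem119 stood at 0.75, 0.78 and 0.97 in brain and -3.23 and -3.39 in liver, and P2ry12 at -0.26, -0.20 and -0.28 in brain and -4.06 and -4.01 in liver. Siglech was not called on a probe that read near the same on every array, from 7.64 to 7.79, and its 2 other probes were higher in brain by 2.79 and 6.43. All 8 markers of Kupffer cells, the liver macrophages, were lower in brain, where 30.5% of all tested genes were. Of the 8, 5 were dim on all 3 brain arrays, so the filter largely set their direction. Only 2 were well above background on all 5 arrays. Clec4f, the Kupffer cell lectin, was at least 388-fold lower and Cd5l at least 439.7-fold lower.

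**Figure D2:**
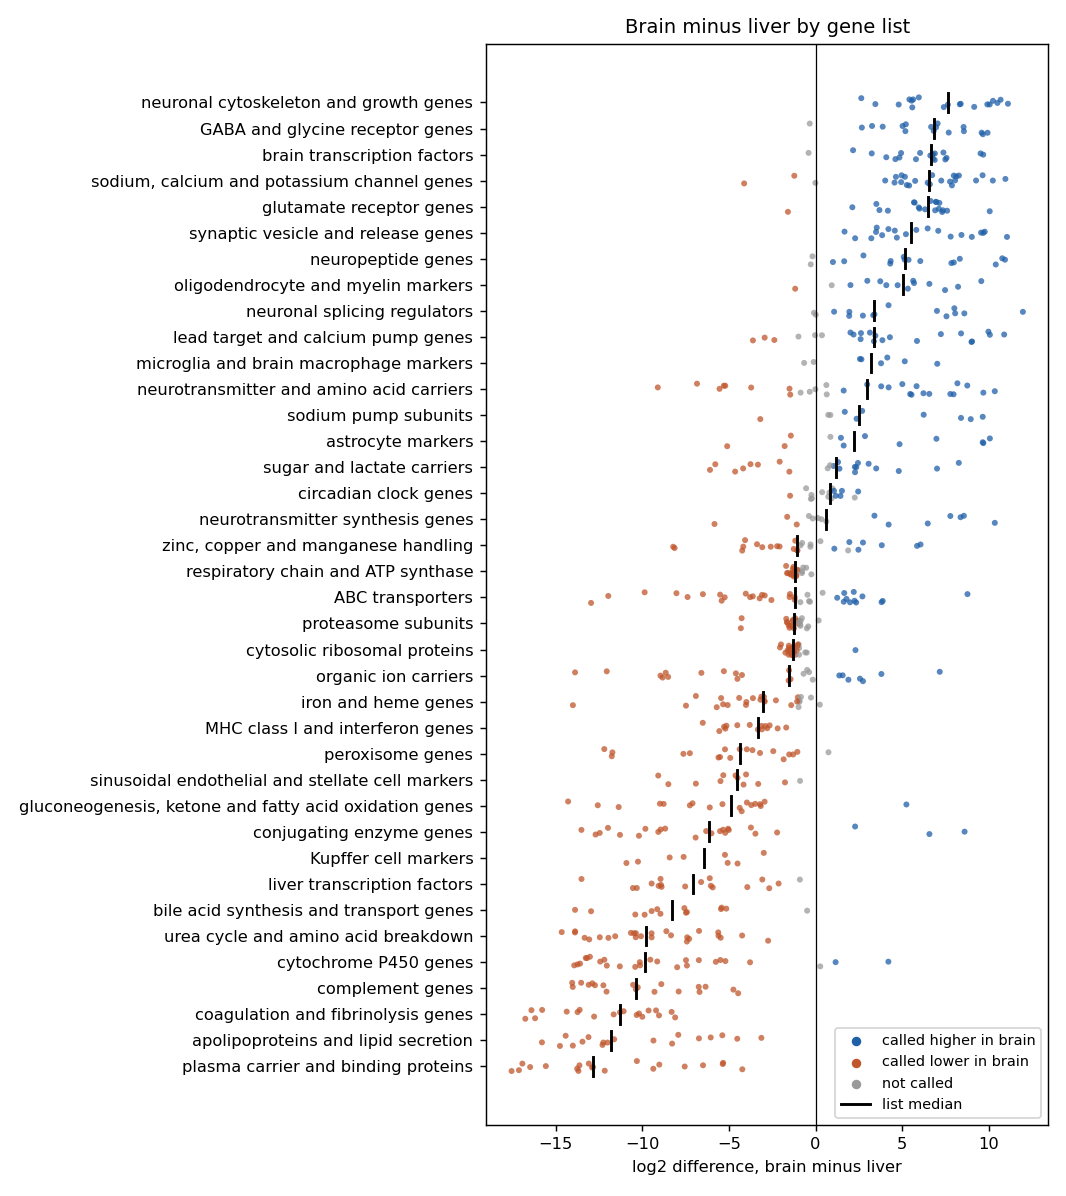
Log2 difference, brain minus liver, of each tested member of the gene lists (points) with the list median (bar), ordered by median; colours give the call. Neuronal lists lie at the top with medians between 5.15 and 7.64 for cytoskeleton, receptor, channel, vesicle, transcription factor and neuropeptide genes, and hepatocyte lists at the bottom, down to -12.87 for plasma proteins.

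Secreted liver proteins were lower in brain without exception in 4 lists, where 30.5% of tested genes were. All 20 plasma carrier proteins were lower with a median of -12.87, all 19 coagulation genes with -11.29, all 19 tested complement genes with -10.38 and all 18 apolipoprotein and lipid secretion genes with -11.82. With genes dim in brain at their bounds these medians were -11.53, -10.19, -10.07 and -10.84. For those dim genes the filter largely set the direction. Fibrinogen beta (Fgb), the clotting substrate, had levels of -7.07, -7.26 and -7.36 in brain and 9.59 and 9.47 in liver. Antithrombin (Serpinc1) was at least 17501-fold lower on its brightest probe, while its other tested probe differed by only -0.63. Complement C3, measured on all 5 arrays, stood at -1.05, -1.06 and -1.13 in brain and 9.22 and 9.38 in liver. Factor B (Cfb) and C4bp were at least 4308 and 3363-fold lower on their brightest probes. Their other tested probes differed by -11.68 and -6.003. Apoa5, Apoa1 and Apob, which carry lipid in plasma, were at least 12597, 7351 and 6415-fold lower.

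Apoe, Trf and Ttr, liver proteins that brain is known to make as well, were lower too but measured on all 5 arrays; they were chosen as examples after their values were seen. Apoe, the lipid carrier of astrocytes, had 6.98, 6.93 and 7.08 in brain and 10.12 and 10.12 in liver, a difference of -3.13 ± 0.047. Transferrin (Trf) stood at 4.75, 4.69 and 4.48 in brain and 9.99 and 9.96 in liver. Transthyretin (Ttr), made in choroid plexus and liver, read 6.09, 5.78 and 4.19 in brain and 9.59 and 9.56 in liver, and its high-dose brain level was the lowest. The choroid plexus markers Kl, Kcne2, Folr1, Sostdc1 and Clic6 were also lowest on the high-dose brain array, Kcne2 for example at -0.92, -1.29 and -3.004, against -5.997 and -6.05 in liver. Of 11 choroid plexus markers, 7 were called higher in brain; the part of this tissue in the Ttr level was not tested.

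Of 26 tested cytochrome P450 genes, 23 were lower in brain, 2 higher and 1 not called, with a median of -9.84, or -8.43 at the bounds. Cyp2c50 and Cyp3a25 were at least 3426 and 3118-fold lower. The 2 that were higher are known brain enzymes: Cyp46a1, which turns cholesterol into 24-hydroxycholesterol in neurons, had 0.20, 0.39 and 0.17 in brain and -0.78 and -1.05 in liver, and Cyp4x1 was at least 16.3-fold higher. Of 24 conjugating enzymes, 21 were lower and 3 higher. Ugt2b5 was at least 2396-fold lower. The 3 higher ones were Sult4a1, a neuronal sulfotransferase, at 5.68, 5.67 and 5.70 in brain and -2.17 and -3.68 in liver, the myelin lipid enzyme Ugt8a, and Gstm5, higher by 2.29 ± 0.066.

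Nitrogen and energy metabolism of hepatocytes was lower throughout. All 26 genes of the urea cycle and amino acid breakdown were lower, with a median of -9.77, or -9.04 at the bounds. Carbamoyl phosphate synthetase (Cps1), the entry enzyme of the urea cycle, read -5.65, -5.62 and -6.09 in brain and 4.998 and 4.75 in liver, at least 996-fold lower. Agxt and Hpd were at least 5895 and 3917-fold lower. Of 18 genes for glucose production, ketone making and fatty acid oxidation, 17 were lower. Pck1, the first committed enzyme of gluconeogenesis, was at least 4405-fold lower. The single gene higher was Oxct1, which uses ketone bodies and is low in liver, at 4.91, 4.91 and 4.99 in brain and -0.19 and -0.44 in liver.

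Of 14 bile acid genes, 13 were lower, led by the hepatocyte uptake carrier Slco1b2 and the export pump Abcb11 with bounds of 4811 and 3424-fold. The other tested Slco1b2 probe differed by -6.22. The bile acid carrier Slc10a1 was not called on its brightest probe, which read 9.02, 8.99 and 9.003 in brain and 9.46 and 9.51 in liver, while its other probe was lower in brain (difference of -11.97). Of 18 liver transcription factors, 17 were lower. Hnf4a, the nuclear receptor that maintains hepatocytes, had -6.85, -7.0 and -6.40 in brain and 6.69 and 6.84 in liver, and Foxa2 was at least 325-fold lower. Endothelial and stellate cell genes were lower for 11 of 12; Clec4g, a lectin of the sinusoids, had -4.10, -4.47 and -4.22 in brain and 4.89 and 4.75 in liver.

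The shorter HNF1-type letters were present in 3.83% of the 601 promoters of protein-coding genes lower by at least 5, in none of the 899 higher by at least 5, and in 0.316% of all 12646 tested. Of all 27025 promoters, 0.437% hold them. Of the 40 tested genes with the letters, 29 were lower in brain, 2 higher and 9 not called. The HNF4-type letters CAAAGTCCA were in 3.16% of those lower by at least 5, in 0.334% of those higher by at least 5 and in 0.506% of all tested; 33 of 64 such genes were lower and 11 higher. The 8 genes with the largest deficit are shown for each pattern, in the same form as above, first HNF1.
Gc (chr5:89457931-89457960, minus strand): cagtgacaaaGTTAATGATTaaaacctccc
Afm (chr5:90518801-90518830, plus strand): ttttcccctaGTTAATAATTacctagaaat
C4bp (chr1:130661663-130661692, minus strand): gctctagtctGTTAATCATTcaccgggaca
Habp2 (chr19:56287836-56287865, plus strand): ttgatgcctaGTTAATAATTtgcatcctct
Hc (chr2:35061471-35061500, plus strand): tagttctccgGTTAATTATTaatgtcagag
F13b (chr1:139501642-139501671, minus strand): gacaaaacaaGTTAATAATTacaatgtctg
Prodh2 (chr7:30493520-30493549, minus strand): gtggtggaggGTTAATAATTaatggttagg
AI182371 (chr2:35100719-35100748, minus strand): ttctccttgtGTTAATAATTaacacgacct
Gc is the vitamin D binding protein of plasma, at least 22369-fold lower in brain; Afm, C4bp, Habp2, Hc and F13b encode other plasma proteins. The HNF4-type matches follow.
Cyp2c69 (chr19:39886825-39886854, minus strand): atcattgagaCAAAGTCCAtttggaagaga
Cyp3a41a (chr5:145720212-145720241, minus strand): aagagacgacCAAAGTCCAggtgatgcagg
Cyp3a16 (chr5:145469803-145469832, minus strand): aagagacgacCAAAGTCCAggtgatgcagg
Cyp2c68 (chr19:39741159-39741188, minus strand): atcattgaaaCAAAGTCCAattggaagaga
Agxt2 (chr15:10358502-10358531, plus strand): cttctaatatCAAAGTCCAgtccagtcagt
Cyp2c40 (chr19:39812840-39812869, minus strand): atcattgagaCAAAGTCCAtttggaagaga
Cyp2c67 (chr19:39649148-39649177, minus strand): atcattgagaCAAAGTCCAtttggaagcaa
Cyp2c70 (chr19:40187331-40187360, minus strand): aggtcaaactCAAAGTCCAaactctgtgta
Of these 8, 7 are cytochrome P450 genes, several of them near-identical neighbours on chromosome 19 and chromosome 5 whose sites are copies of one sequence and whose probes may share signal. Agxt2 is a mitochondrial aminotransferase. The 250 bases before the start of Gc, on the minus strand at chr5:89457899-89458148, show the HNF1-type letters close to the start.
Gc: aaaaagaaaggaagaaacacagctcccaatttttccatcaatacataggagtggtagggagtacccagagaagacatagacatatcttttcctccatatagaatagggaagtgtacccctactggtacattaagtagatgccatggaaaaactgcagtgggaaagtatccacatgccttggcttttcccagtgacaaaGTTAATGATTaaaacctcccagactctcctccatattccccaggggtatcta

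Promoter base composition also differed between the directions. A promoter rich in CpG (observed over expected CpG above 0.6 and GC above 50%) was found for 54.3% of genes higher by at least 5, for 15.8% of genes lower by at least 5 and for 57.9% of all tested protein-coding genes. TATAAA between 40 and 20 bases before the start stood in 1.78% of the higher, 7.65% of the lower and 1.97% of all. The CEBP core and FOXA letters were more frequent on the lower side, at 17.8% and 8.15%, than on the higher side, at 7.23% and 2.45%. The ETS letters CCGGAAG were less frequent on both sides, 4.004% and 2.496%, than over all tested genes, 14.9%. These shares describe the promoters, which differ in composition, and no test was made.

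**Figure D3:**
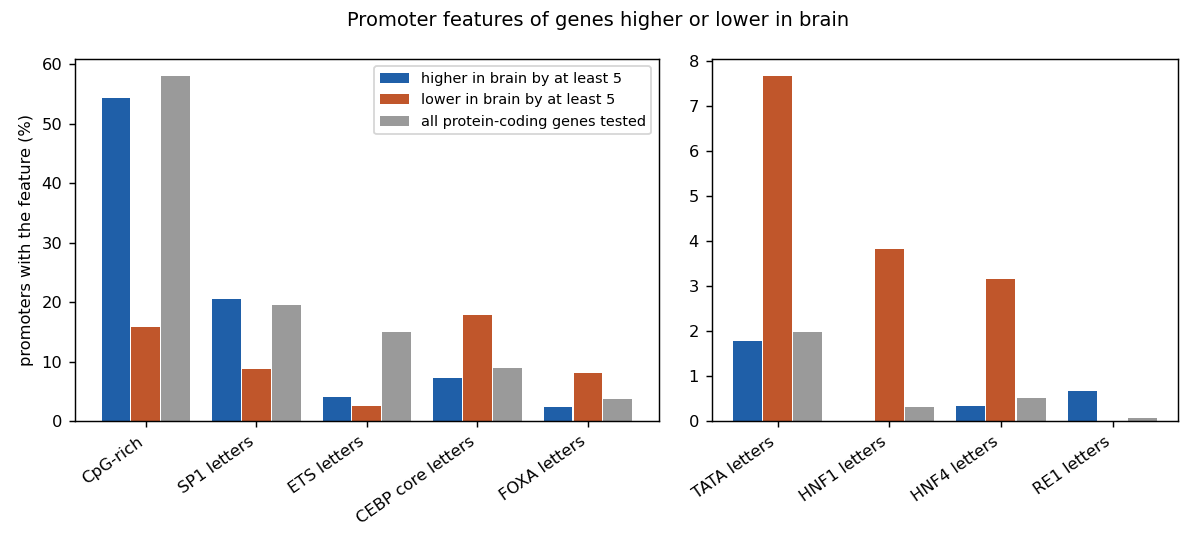
Share of promoters with each feature, in percent, for protein-coding genes higher in brain by at least 5 (899 genes), lower in brain by at least 5 (601 genes) and all tested (12646 genes); the panels have different scales. CpG-rich promoters make 54.3% of the higher and 15.8% of the lower set, and the HNF1, HNF4 and TATA letters are most frequent in the lower set.

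Many steps of metabolism have a brain form and a liver form encoded by different genes. Of 27 such pairs, 14 had opposite calls, the brain form higher and the liver form lower; 20 brain forms were higher and 21 liver forms lower. Pkm, the pyruvate kinase of most tissues, was higher by 4.96 ± 0.042, and the liver form Pklr at least 62.1-fold lower. Glycogen phosphorylase showed the same reversal, Pygb higher by 4.16 ± 0.22 and Pygl lower (difference of -8.06). Glycogen synthase Gys2 was at least 1003-fold lower, with Gys1 higher by 1.26 ± 0.12.

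The neuronal glucose carrier Slc2a3 was at least 102-fold higher on its brightest probe, while its other tested probe differed by 3.004. Slc2a2, the carrier of hepatocytes, was lower (difference of -6.09). Ldhb stood at 6.10, 6.34 and 6.17 in brain and -0.44 and -0.31 in liver, while Ldha stood at 5.99, 6.01 and 5.97 in brain and 8.07 and 7.91 in liver. Fabp7 was higher by 3.24 ± 0.11 and Fabp1, as above, had a bound of 33988-fold lower. Cpt1c and Cpt1a, Arg2 and Arg1, Gja1 and Gjb1, Ptbp2 and Ptbp1, Slc16a7 and Slc16a1, and Elovl4 and Elovl2 were further pairs with opposite calls. Arg2 rested on dim probes, with a bound of only 1.44-fold, and with normexp background correction the log2 difference of Arg2 was -0.17. With the mean of all probes the log2 difference of Slc16a7 was -0.54, so in these settings neither pair was opposite. Ptbp2 and Slc16a7 lay close to the size rule, and 1 liver array decided their calls: the log2 difference of Ptbp2 was 0.98 without the high-dose liver array, and the log2 difference of Slc16a7 was 0.73 without the control liver array.

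Other pairs did not reverse. Eno2, the neuronal enolase, was at least 1014-fold higher, but Eno1 was not called, at 6.17, 6.08 and 6.17 in brain and 6.66 and 6.60 in liver. Mat1a was at least 1533-fold lower, while Mat2a was not called. Hk1 was not called on its brightest probe, at 5.70, 5.78 and 5.75 in brain and 6.48 and 6.48 in liver, and its 3 other probes ranged from -0.89 to 5.73. Both glutamate carriers of 1 pair, Slc1a3 and Slc1a1, were higher, and both acetyl-CoA carboxylases, Acacb and Acaca, were lower (differences of -1.28 and -1.17) on their brightest probes, differences close in size to the shift that scaling makes, while the 6 other Acaca probes ranged from -1.46 to 3.91.

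**Figure D4:**
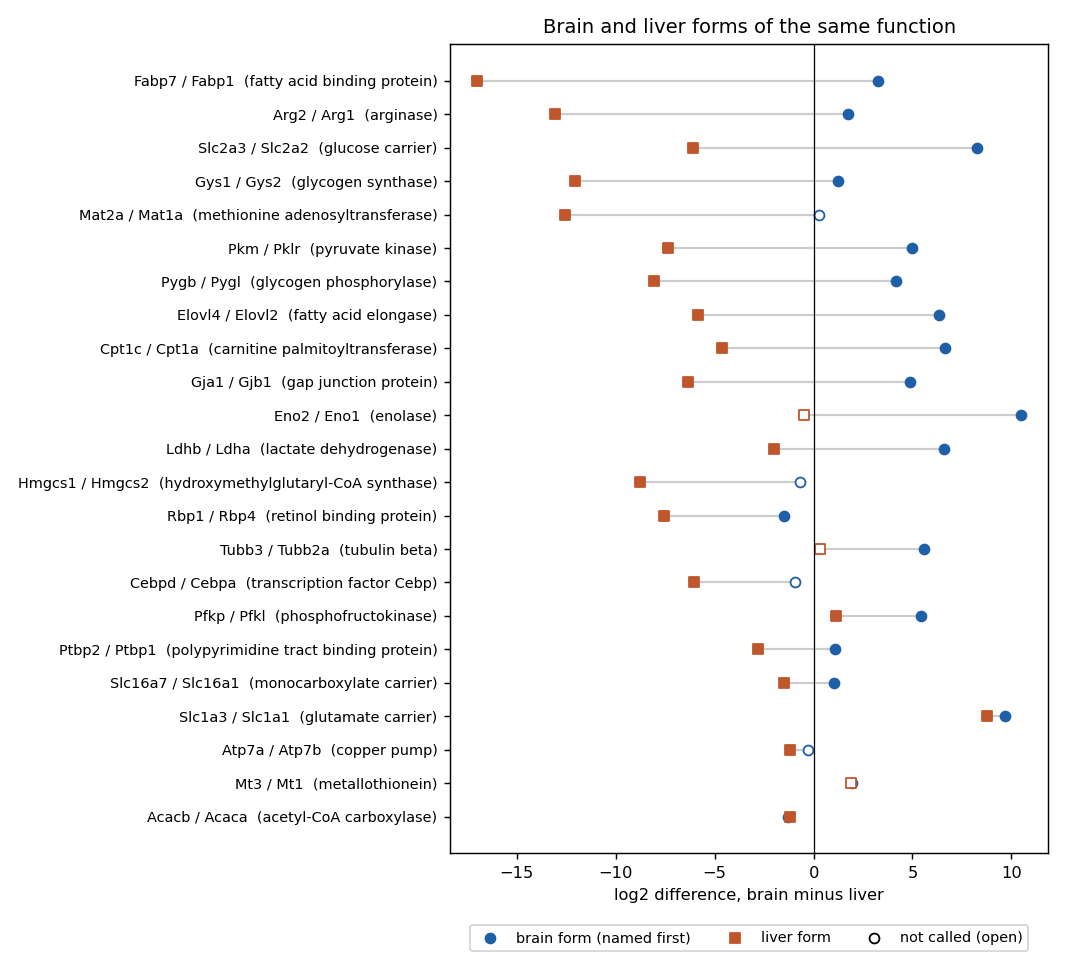
Log2 difference, brain minus liver, of the brain form (circles) and the liver form (squares) of 23 of the 27 pairs of genes with the same function, ordered by the gap; open symbols were not called. In 12 of those drawn the brain form lies to the right of 0 and the liver form to the left, both called.

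The study's title is about transporters, and these were called in both directions. The shares of all tested genes, to be set beside these counts, were 27.1% higher and 30.5% lower. Of 29 tested neurotransmitter and amino acid carriers, 16 were higher and 8 lower in brain. Slc7a5, which moves large neutral amino acids across the blood-brain barrier, had 2.50, 2.66 and 2.76 in brain and -2.42 and -2.33 in liver. The glutamine and neutral amino acid carriers Slc38a3 and Slc38a4 were lower (differences of -5.21 and -9.11). Of 25 organic ion carriers, 14 were lower and 7 higher. Slco1c1, the thyroxine carrier of brain capillaries, was higher by 3.81 ± 0.085. Slc22a17, a receptor for the iron carrier lipocalin 2, read 6.22, 6.20 and 6.11 in brain and -0.97 and -1.02 in liver.

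Of 37 tested ABC transporters, 20 were lower and 12 higher in brain, where 30.5% and 27.1% of all tested genes were. Their median was -1.21, which is -0.08 without scaling. Abcc8, the sulfonylurea receptor of potassium channels, was at least 108-fold higher. Abcb1a, the drug pump of the blood-brain barrier, had -0.27, -0.19 and -0.29 in brain and -2.27 and -1.55 in liver. Abcg2, another drug pump of that barrier, was lower in brain, at 0.96, 0.97 and 0.94 against 4.69 and 4.47 in liver. The canalicular pumps Abcc2 and Abcg5 were at least 214 and 1302-fold lower. Of 10 sodium pump genes, 7 were higher. The beta subunit Atp1b2 was at least 331-fold higher, and Fxyd7 at least 159-fold. Fxyd1 was the 1 member that was lower.

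Zinc, copper and manganese genes went both ways, as did all tested genes, with 27.1% higher and 30.5% lower. Of 27 tested, 7 were higher, 14 lower and 6 not called; the median of -1.04 turns to 0.08 without scaling. The vesicular zinc carrier Slc30a3 of glutamatergic neurons read 0.10, 0.13 and 0.25 in brain and -5.70 and -5.70 in liver, at least 17.8-fold higher, and the importer Slc39a12 at least 17-fold. Slc39a10 was higher by 3.83 ± 0.10 and Slc39a6 by 2.74 ± 0.20. The importers Slc39a14 and Slc39a8, which carry zinc, manganese and iron, were lower, Slc39a14 at -0.44, -0.31 and -0.38 in brain against 2.90 and 3.101 in liver and Slc39a8 at -2.84, -2.74 and -2.86 in brain against 1.36 and 1.36 in liver. Slc39a4 and the manganese exporter Slc30a10 were lower (differences of -8.14 and -3.07). Ceruloplasmin (Cp), the copper oxidase of plasma, had -1.45, -1.57 and -1.52 in brain and 6.80 and 6.61 in liver.

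Among the metallothioneins, which bind zinc, copper and heavy metals, the tissue difference of Mt1 and Mt2 depended on the liver array, while that of Mt3 did not. Mt2 stood at 5.67, 5.54 and 5.84 in brain, against 1.71 and 4.70 in liver, so the control liver was 2.99 below the high-dose liver. Its difference was 2.48 ± 0.78 (adjusted p = 0.023). Between control arrays the difference was 3.96, and between high-dose arrays 1.14. Without the control liver array the log2 difference of Mt2 was 0.98 and it was not called, and without any 1 of the brain arrays its adjusted p in limma was 0.0571 to 0.0644. Mt1 had 6.92, 6.92 and 7.17 in brain and 3.56 and 6.67 in liver, and was not called (adjusted p = 0.0679). Without the high-dose liver array the log2 difference of Mt1 was 3.44 and it was called, against 0.33 without the control liver array. Mt3, the form of the nervous system, stood at 2.73, 2.51 and 2.64 in brain and 0.63 and 0.71 in liver, a difference of 1.95 ± 0.077. On every brain array Mt1, Mt2 and Mt3 exceeded both liver arrays. Which of dose and sample sets the liver values cannot be told apart with 1 array each.

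None of the 26 iron and heme genes was higher in brain, 20 were lower and 6 were not called, with a median of -3.05. Alad, the lead-inhibited enzyme of heme synthesis, had 2.76, 2.70 and 2.61 in brain and 6.29 and 6.32 in liver, a difference of -3.61 ± 0.055, or 12.2-fold lower in brain (adjusted p = 1.60e-08). Ferrochelatase (Fech), which inserts iron into heme and is also inhibited by lead, stood at 2.22, 2.27 and 2.23 in brain and 5.18 and 5.18 in liver. The first enzyme of the pathway, Alas1, read 3.34, 3.29 and 3.35 in brain and 7.07 and 7.57 in liver. Brain arrays were all below liver arrays for these 3 enzymes. The erythroid form Alas2 was lower (difference of -5.45), and hemoglobin chains Hba-a1 and Hbb-b1, signs of blood in the tissue, were lower (differences of -2.19 and -2.02), as were 5 of 6 blood cell markers in all, so blood moved the same way; its part was not tested. The iron hormone hepcidin (Hamp) was at least 3913-fold lower. The exporter Slc40a1 and the receptor Tfr2 were lower (differences of -5.07 and -6.91). Transferrin receptor Tfrc was not called, at -0.48, -0.65 and -0.41 in brain and -0.73 and -0.80 in liver, and neither was the iron and lead importer Slc11a2, at -1.69, -1.68 and -1.64 in brain and -1.04 and -0.45 in liver, although without the control liver array the log2 difference of Slc11a2 was -1.22 and it was called.

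Calcium proteins named as lead targets were mainly higher. Of 23 members of that list, 17 were higher, 3 lower and 3 not called, with a median of 3.37. Calbindin (Calb1) was at least 148-fold higher, and Camk2b, a subunit of calmodulin kinase II, at least 746-fold. The calcium pump Atp2b2 read 5.17, 5.26 and 5.22 in brain and -3.76 and -3.89 in liver. The 3 members lower in brain were Alad, Fech and the store-operated channel Orai1, at -1.65, -1.82 and -1.63 in brain and 0.63 and 0.72 in liver. Its sensor Stim1 was not called, at 2.93, 2.998 and 2.80 in brain and 2.84 and 3.03 in liver.

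**Figure D5:**
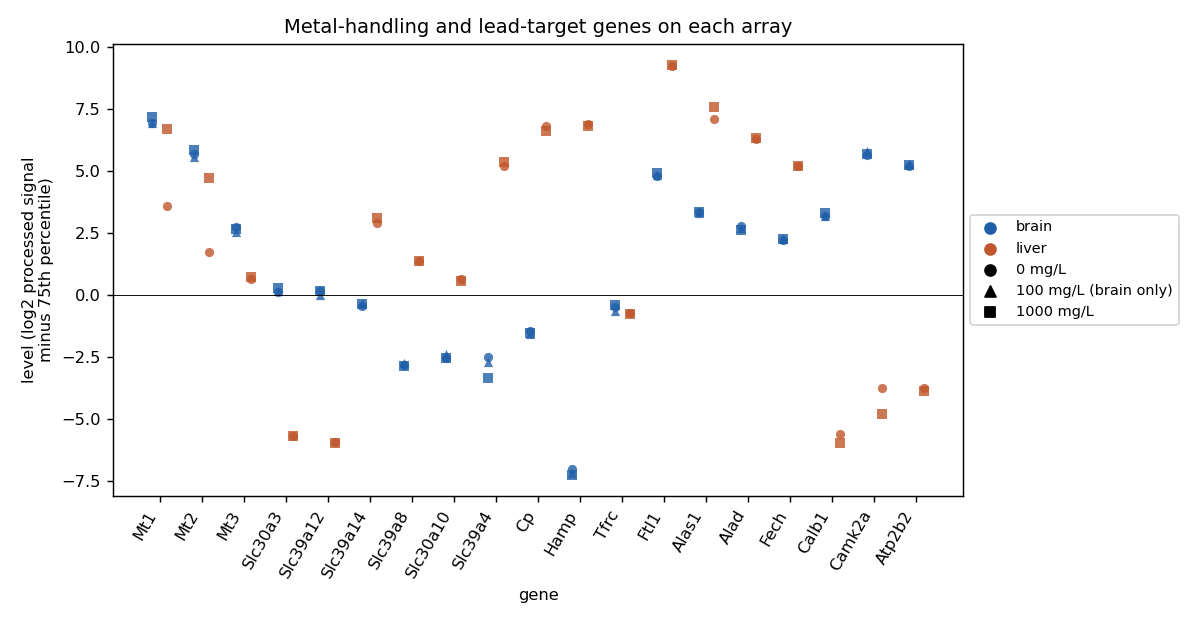
Level of metal-handling and lead-target genes on each brain array and each liver array, as log2 processed signal minus the 75th percentile; symbols give the dose. Mt1 and Mt2 are the genes in which the 2 liver arrays lie far apart, and Alas1, Alad and Fech lie higher on both liver arrays.

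Genes that every cell uses gave small, even differences. Of 30 cytosolic ribosomal proteins, 24 were lower, 1 higher and 5 not called, with a median of -1.33. Proteasome subunits were lower for 16 of 25 with -1.25, and respiratory chain and ATP synthase subunits for 19 of 25 with -1.20. Without scaling these medians are -0.20, -0.12 and -0.08, so these 3 lists are near level on the signals as scanned. Rplp0, often used as a reference gene, read 4.83, 4.83 and 4.80 in brain and 6.85 and 6.89 in liver. The 1 higher member, Rpl37, rested on a dim probe with a bound of 1.34-fold. Among proteasome subunits, Psmb8 and Psmb9, the immunoproteasome subunits induced by interferon, stood apart and were lower (differences of -4.27 and -4.31).

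Antigen presentation and interferon genes were lower in brain for all 15 members, with a median of -3.32. B2m, the light chain of MHC class I, had 1.96, 2.05 and 2.004 in brain and 7.64 and 7.47 in liver. H2-K1, a heavy chain, stood at 0.63, 0.84 and 0.74 in brain and 6.05 and 5.84 in liver, and the interferon regulator Irf7 was lower (difference of -5.28). Of 19 tested peroxisome genes, 18 were lower, catalase (Cat) with a difference of -7.63 and urate oxidase (Uox) with one of -12.20. Of 16 circadian clock genes, 10 were not called, 5 were higher and 1 was lower. Per1 was higher by 1.53 ± 0.50 but read 0.75 and 2.63 on the liver arrays, 1.88 apart; brain read 3.20, 3.07 and 3.37. Without the control liver array the log2 difference of Per1 was 0.59, and its call also ended without any 1 of the brain arrays (limma adjusted p 0.0584 to 0.0735).

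Kidney was nearer to liver for most genes. Among the 6467 genes higher in brain, the kidney mean lay nearer the liver mean for 4744 and nearer the brain mean for 1723. Median levels of these genes were -0.191 in brain, -4.144 in liver and -3.1002 in kidney. Among the 7291 lower genes, kidney lay nearer liver for 4086 and nearer brain for 3205, with median levels of -1.44 in brain, 1.37 in liver and 0.33 in kidney. Of the higher genes, 3304 were not well above background on either liver array, so for them these distances are partly distances to background. Among genes well above background on all 8 arrays, kidney lay nearer liver for 1834 of 2732 higher genes and for 3509 of 5859 lower ones. The kidney arrays took no part in the calls.

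The tissue difference changed little with dose. The SD over all tested genes was 0.286 for high-dose minus control brain, 0.293 for low-dose minus control brain and 0.395 for high-dose minus control liver, against 3.02 for brain minus liver. Of the 13758 called genes, 923 had a difference that was at least 1 larger or smaller between high-dose arrays than between control arrays. The 10 with the largest change were Tub, Neurod2, Serpina3k, Pcdh7, Postn, Lrrc66, Auts2, B3galt2, Grin1 and Mt2. Of these, 9 were not well above background on at least 1 of the 5 arrays, and Mt2 was measured on all 5. Grin1, the obligatory NMDA receptor subunit, read 2.59, 2.56 and 2.60 in brain and -5.89 and -2.90 in liver, where its probe was well above background on the high-dose array only. Neurod2, a neuronal transcription factor, likewise read 2.92, 2.52 and 2.91 in brain and -5.82 and -2.18 in liver. Tub read 2.63, 2.54 and 2.69 in brain and -6.01 and -1.78 in liver. Without the control liver array the log2 difference of B3galt2 was 1.91, against 3.22 on all 5 arrays. Lrrc66 and Postn lost their calls when 1 array was left out, at limma adjusted p of 0.0502 for the log2 difference of Lrrc66 without the low-dose brain array, and of 0.0717 for the log2 difference of Postn without that array or 0.0706 without the control liver array. Grin1, Neurod2 and Tub stayed at least 4.47 higher in high-dose brain than in high-dose liver.

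Markers of other tissues were looked at on the same arrays. Spermatid genes Prm1, Prm2 and Tnp1 were high on the high-dose brain array, Prm1 at -3.12, -3.99 and 2.42 in brain and -2.14 and -1.79 in liver, and none of 4 tested was called. Prolactin and growth hormone (Prl and Gh) were not tested: Prl read -1.43, -5.75 and -4.97 in brain and -6.20 and -4.95 in liver, with the control brain array highest. Of 8 tested exocrine pancreas genes, 4 were lower in brain; Ctrb1, a chymotrypsinogen, had -3.16, -2.70 and -3.13 in brain and 0.02 and 0.31 in liver. The fat markers Adipoq, Plin1 and Cfd and the bile duct markers Krt7 and Epcam were not well above background on all arrays of either tissue. Of the 5 fat markers that were tested, 3 were lower and 1 higher in brain. Of the 6 bile duct markers that were tested, 4 were lower and 1 higher. The part of these other tissues in the results above was not tested.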

How the data were processed

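RNA of each tissue piece was labelled with Cy3 and hybridised to 1 Agilent array per sample, per the labels' protocols. The authors' deposited scanner files hold a processed signal intensity per spot, with the local background already removed, as the scanner software Agilent Feature Extraction (12.0.3.1) wrote it according to the submitters' processing notes. The deposited value table holds values on a linear ratio scale, which were each spot's processed signal divided by the array's 75th percentile for 100% of spots within a tolerance of 1%; the sources used here do not give its scale in words. All arrays lay on 1 slide.

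From the intensities, control spots were left out, spots of a probe were averaged, the array's 75th percentile was divided out and log2 was taken. A probe counted as well above background on an array where at least 0.5 of its spots did. Brain and liver were compared with limma 3.58.1 (R 4.3.3; lmFit and eBayes with an intensity trend) on 5 arrays, with 3 residual degrees of freedom and a median of 3.17 prior ones. The number of arrays limits the precision. The fit was tested on simulated data before use. At most 1 spot per array was saturated. Accessions of 32994 probes matched RefSeq gene names, which changed 1535 names; 23611 probes kept the file's name. The list genes Ugt1a1 and Cox5b were not found by name. Tables were made with Python 3.11.15, pandas 2.3.3, numpy 2.4.6 and matplotlib 3.10.9. Promoter letters come from RefSeq, GRCm38.p6.

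The gene lists, the pairs and the comparison itself were chosen with earlier results of these data known. Named genes are the 12 largest differences in each direction among called genes measured on all 5 arrays, the 6 largest bounds in each direction, up to 5 called members of each list with the largest difference or bound in each direction, the metal, sodium pump and other-tissue lists, both genes of each pair, the 10 largest changes of the difference with dose, and the 5 brightest genes with a difference under 0.1. Members named as exceptions or as known markers beyond this, genes with a promoter pattern and those of the closing section were chosen after their values were seen. Kidney enters no test. A low-dose liver array was not analysed here, and some genes that these rules name are not reported here.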

Additional observations from a re-analysis of the deposited data

How the results depend on the processing

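The brightness of whole arrays is the main limit. On scaling by the 75th percentile, 6467 genes were higher and 7291 lower in brain, so 47.0% of calls were higher; the share was 38.1% with scaling by the median (5700 and 9277), 49.5% with quantile normalization (6581 and 6714) and 39.3% with normexp background correction (4195 and 6480). The sign changed for 654 calls with normexp, 124 with quantile normalization and 139 with the mean of all probes. Without scaling, chosen after seeing the data, the share was 78.0% (11048 and 3123), with 760 calls of the other sign, and with the percentile over probes measured on all 5 arrays, also chosen later, 60.3% (7735 and 5088). Only probes well above background on all 5 arrays gave 2824 higher and 6029 lower genes, fewer by construction, and no filter on dim probes 6717 and 14501. The direction in controls held for 8853 of 8853 calls with the stricter filter, for 21217 of 21218 with none, and for every call in 4 other settings run. Means of all probes, the deposited value table, all 8 arrays, no intensity trend and the control or high-dose arrays alone gave 6437 to 6543 higher and 7061 to 7402 lower genes. Leaving out 1 array at a time gave 6394 to 6509 higher and 7267 to 7370 lower; with 1 liver array left it is assumed to vary like the others.

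No analysis paired by replicate number was possible because the labels carry none; with the arrays matched by dose, as a block, 6436 genes were higher and 7301 lower, and with exposure as a block 6459 and 7290. Of the called genes named above, 6 changed sign under some setting. With the mean of all probes, the log2 difference of Grik1 was 2.96, the log2 difference of Scn8a 3.88 and the log2 difference of Slc16a7 -0.54. With normexp, the log2 difference of Arg2 was -0.17 and the log2 difference of Rpl37 -0.16, both dim in 1 tissue, and with quantile normalization the log2 difference of Ermn was 0.042; the cause was not tested. Over 246 named genes and 5047 values under other settings, 59 lost and 36 gained a call, and 73 values of genes not called changed sign; without scaling, the log2 difference of Eno1 was 0.63 and the log2 difference of Hk1 0.39. Medians of 45 lists moved beyond their spread in 270 of 945 values. With only probes well above background on all 5 arrays, which drops genes dim in liver, the median log2 difference of neuropeptide genes was -0.22, the median log2 difference of neurotransmitter synthesis genes -0.17, the median log2 difference of neurotransmitter and amino acid carriers -1.46, the median log2 difference of choroid plexus markers -2.31 and the median log2 difference of pituitary hormone genes -0.65. Without scaling, the median log2 difference of zinc, copper and manganese handling was 0.08 and the median log2 difference of adipocyte markers 0.06. The median log2 difference of spermatid genes was -0.86 without the high-dose brain array and -0.92 on the control arrays alone. No other list median changed sign under the settings run.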

Other observations

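Gene families counted by symbol gave a similar division, and were chosen after seeing the data. Of 72 tested potassium channel subunits (Kcn), 49 were higher and 4 lower in brain, where 27.1% of all tested genes were higher. Calcium channel subunits (Cacn) were higher for 20 of 25 and lower for none. Protocadherins, adhesion proteins of neurons, were higher for 34 of 40, and regulators of G protein signalling (Rgs) for 13 of 17. Sodium and calcium exchangers of the Slc8 and Slc24 families were higher for 7 of 8. Subunits of the V-ATPase, which acidifies vesicles, were higher for 9 of 18 and lower for 1.

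On the other side, all 14 glucuronosyltransferases, all 16 tested carboxylesterases and all 12 major urinary proteins were lower in brain, families whose members resemble each other closely enough to share probes. Of 79 tested P450 genes, 69 were lower and 5 higher. Mitochondrial ribosomal proteins were lower for 55 of 78, a share that depends on the scaling as for the cytosolic ones. Peroxins, which build peroxisomes, were lower for 14 of 17. Olfactory receptors passed the background filter for 197 of 1091 genes on the array, of which 14 were higher and 81 lower in brain.

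Long genes were more often higher in brain. Among tested protein-coding genes split into 5 classes by length, the longest class, from 70.02 to 2390 kb, had 44.93% higher and 20.87% lower. The shortest class, up to 6.956 kb, had 21.6% higher and 39.25% lower. Median gene length was 33.3 kb for higher and 17.35 kb for lower genes. On chromosome X, 41.25% of 543 tested protein-coding genes were higher and 22.84% lower, against 28.62% and 31.41% over all chromosomes. Of 2229 tested lincRNA probes' loci, named by their position only, 510 were higher and 628 lower. That division lies near the 27.1% higher and 30.5% lower of all tested genes.

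Host transcripts of brain microRNAs were measured too. Mir124a-1hg was at least 65.6-fold higher, with 2.01, 1.94 and 2.18 in brain and -5.43 and -6.09 in liver. Mir9-3hg was at least 25.1-fold higher, with 0.61, 0.71 and 0.65 in brain and -6.13 and -6.19 in liver. These are transcripts of the host loci, not of the mature microRNAs.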
